A study of Mus musculus with 4 samples.

Results

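Open chromatin at B lineage genes was examined in T cells, over the 9 genes Pax5, Ebf1, Cd79a, Cd79b, Blk, Blnk, Bank1, Vpreb3 and Cd74 out of 21631 protein-coding genes on chromosomes 1 to 19 and X. The members were every peak of the deposited lists that overlapped the gene body or the 10 kb on either side of it (mm10, RefSeq genes). These were 32 peaks in Scd1-deficient and 25 in control naive CD4 T cells, and 56 peaks in Scd1-deficient and 60 in control DN3 thymocytes. Peaks of the 4 lists that overlapped by at least 1 bp were joined, which gave 65 regions of 90270 in the whole series.

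ATAC-seq, in which the transposase Tn5 cuts and tags open DNA, was applied to untreated primary mouse cells. Naive CD4 T cells, mature cells that have not met antigen, were taken from the spleen with magnetic beads. DN3 thymocytes, which carry CD25 and lack CD4, CD8 and CD44, were obtained from the thymus by depletion and flow sorting. The groups were naive CD4 T cells of Scd1-deficient mice, naive CD4 T cells of littermate controls, DN3 thymocytes of Scd1-deficient mice and DN3 thymocytes of littermate controls, with 1 library each. Scd1 encodes a desaturase of the endoplasmic reticulum that turns saturated into monounsaturated fatty acids. The labels give neither the ages nor the number of animals per library nor the deleted part of Scd1, and the titles mark the controls HZ without explaining it. With 1 library per group, no p-value was computed, and the genotypes have no replicate check.

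Lymphoid progenitors can become B or T cells. Ebf1 and Pax5 are the transcription factors that specify and hold the B lineage, while Notch signals in the thymus divert progenitors to the T lineage. The other genes examined include the B cell receptor chains Cd79a and Cd79b, the kinase Blk and the adaptors Blnk and Bank1. Also among them are the pre-B cell protein Vpreb3, and Cd74, the invariant chain that escorts MHC class II molecules. The comparisons ask where these genes are open in mature naive cells against immature DN3 cells, and in Scd1-deficient against control cells.

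A region within 1 kb of the annotated start (of either annotated end where the reference gives no start) was present in all 4 libraries at 16 of 16 T lineage genes, among them Cd3e, Lck and Bcl11b. Of 10 DN3 stage genes, 6 had such a start region in both naive libraries and 10 in both DN3 libraries, the difference being Ptcra, Rag1, Rag2 and Dntt. All 10 naive CD4 stage genes had a start region in every library. Of all protein-coding genes, 56.6% had one in every library, and 7.28% in both DN3 libraries and neither naive library. On chromosomes 1 to 19 and X the lists held 51297 and 46576 regions in Scd1-deficient and control naive cells, and 76437 and 76814 in Scd1-deficient and control DN3 cells. The read totals were not used here. The genome-wide background recovered from the peak statistics was 3.65 and 5.12 fragments in Scd1-deficient and control naive cells and 4.47 and 4.72 in Scd1-deficient and control DN3 cells.

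More of the B lineage regions were called in DN3 thymocytes than in naive CD4 T cells. Of the 65 regions, 25 (38.5%) were called in both naive libraries and 53 (81.5%) in both DN3 libraries. Around all protein-coding genes the shares were 50.8% and 75.9%. Regions called in both naive libraries and neither DN3 library numbered 3, or 4.62%, against 4.77% of the 68326 regions around all protein-coding genes. Regions of both DN3 libraries with no call in naive cells numbered 25, or 38.5%, against 26.6% around all genes. All 4 libraries shared 21 regions, or 32.3%, against 44.2%. Of the 9 genes, 8 had at least 1 region in each naive library, where 71.9% and 70.3% of all genes did in Scd1-deficient and control cells, and 9 had one in each DN3 library (78.9% and 79.1%). The 25 DN3 regions lay at Blk (7), Ebf1 (7), Pax5 (6), Blnk (2), Bank1 (2) and Cd79b (1). Without Blk, 18 of 58 regions (31.0%) had this pattern. The DN3 lists are longer, and with every list at its 46576 strongest regions the naive pattern held 5 of 44 and the DN3 pattern 13 of 44 (11.4% and 29.5%, against 13.8% and 14.9% around all genes). Of these 13 DN3 regions, 6 were at Blk, and without Blk 7 of 37 remained (18.9%, against 14.9%). Regions of 1 gene are not independent, so no interval is given for these shares, and their difference from all genes was not tested.

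**Figure D1:**
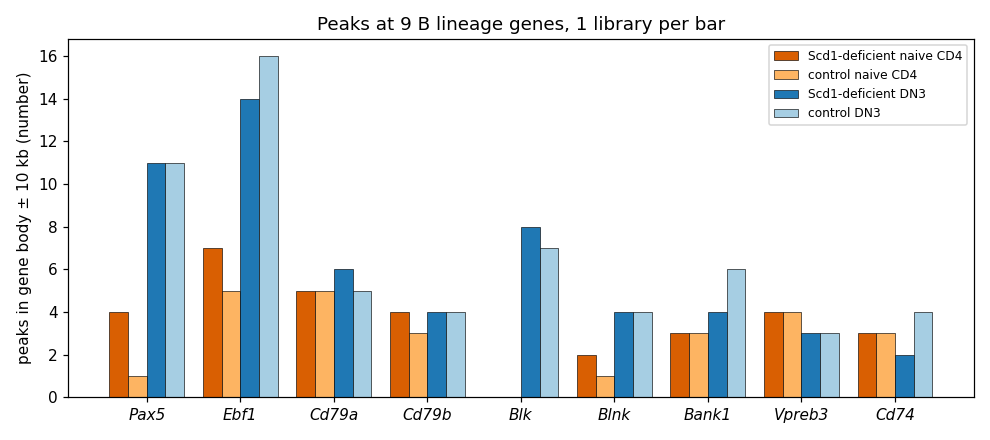
Number of deposited peaks in the gene body and 10 kb on either side (y axis) at each of the 9 genes (x axis), 1 bar per library. Blk had 0 peaks in both naive libraries and 8 and 7 in Scd1-deficient and control DN3 cells, while Vpreb3 had 4 in each naive and 3 in each DN3 library.

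Blk, a Src family kinase of B cells that mouse thymocytes also express at early stages, was the one gene of the 9 with no region in either naive library. Of all genes, 7.75% had a region in some library and none in naive cells. No peak was called within 10 kb of the gene (chromosome 14, 63372837 to 63417187) in Scd1-deficient or control naive cells, while 7 regions were called in both DN3 libraries. The strongest by −log10 q, from 63376772 to 63378368 inside the gene, had a fold over local background of 8.64 in Scd1-deficient and 8.93 in control DN3 cells. Its summit held 215 fragments (exact Poisson 95% interval 187 to 246) in Scd1-deficient and 244 (214 to 277) in control DN3 cells. Over the higher-coordinate end of Blk the fold was 7.44 in Scd1-deficient and 7.79 in control DN3 cells, and over the lower-coordinate end 4.87 and 4.68. The reference used here gives no strand for Blk, so which end is the start was not read from it. The highest fold at Blk, 11.8 in Scd1-deficient and 13.5 in control DN3 cells, belonged to a region inside the gene from 63388784 to 63389656. All 7 regions overlapped the gene body, and none lay within 1 kb of the start of another protein-coding gene.

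The absence of calls at Blk can be set against what the naive lists could call. At the genome-wide background, the weakest peak called had 11 summit fragments and a fold of 2.58 in Scd1-deficient naive cells, and 14 fragments and a fold of 2.45 in control naive cells. The highest summits of the 7 regions held 79 to 215 fragments in Scd1-deficient and 79 to 244 in control DN3 cells. At 6 of the 7 regions the local background in DN3 cells was 18.1 to 32.0 fragments, well above the genome-wide value of those libraries. The local background of naive cells at Blk is unknown, since no peak was called there, and need not follow that of DN3 cells. At the Pax5 region called in all 4 libraries it was 3.86 and 5.12 fragments in Scd1-deficient and control naive cells. In Scd1-deficient and control DN3 cells it was 23.9 and 27.1 there. A naive signal too weak for a call over its own local background was not detectable. Of all 21631 protein-coding genes, 80 (0.37%) had at least 5 regions in both DN3 libraries and none in either naive library. The minimum of 5 was chosen after the values at Blk were seen. With lists of equal length Blk still had 6 such regions of 7.

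Pax5 (chromosome 4, 44524748 to 44710694, minus strand), which encodes the factor that commits progenitors to the B lineage, had 4 and 1 peaks in Scd1-deficient and control naive cells and 11 in each DN3 library. Its strongest region in every library lay inside the gene with the summit 6.25 kb from the start, at 44703394 to 44704875. Its fold was 9.88 in Scd1-deficient and 11.0 in control naive cells and 13.0 in Scd1-deficient and 12.3 in control DN3 cells. The summits of the 4 libraries there lay within 3 bp of each other. The fragments at the summit were 47 and 66 in Scd1-deficient and control naive cells and 322 and 346 in Scd1-deficient and control DN3 cells, over local backgrounds of 3.86, 5.12, 23.9 and 27.1 fragments in the same order. The folds of the naive and DN3 libraries did not overlap, by a small margin, and as fragments over background without the peak caller's added 1 they did.

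The other Pax5 regions were largely those of DN3 cells. A region 30.29 kb into the gene, from 44679967 to 44680598, had a fold of 12.4 in Scd1-deficient and 10.7 in control DN3 cells and was called in neither naive library. Another, 145.91 kb from the start, had a fold of 11.0 in Scd1-deficient and 11.8 in control DN3 cells, and a fold of 4.08 on 18 fragments in Scd1-deficient naive cells, with no call in control naive cells. Around the 1 start that the reference gives for Pax5, little was called. Other starts of the gene, if any, were not examined. The only region within 1 kb of the annotated start, with the summit at −0.75 kb (negative positions lie upstream), was called in control DN3 cells alone. Its −log10 q was 1.94. Further upstream, regions at −1.57 and −2.5 kb, chosen after their values were seen, were called in both DN3 libraries, with folds between 3.11 and 4.62. None of the 300 promoter bases of Pax5 lay in a peak of any library.

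**Figure D2:**
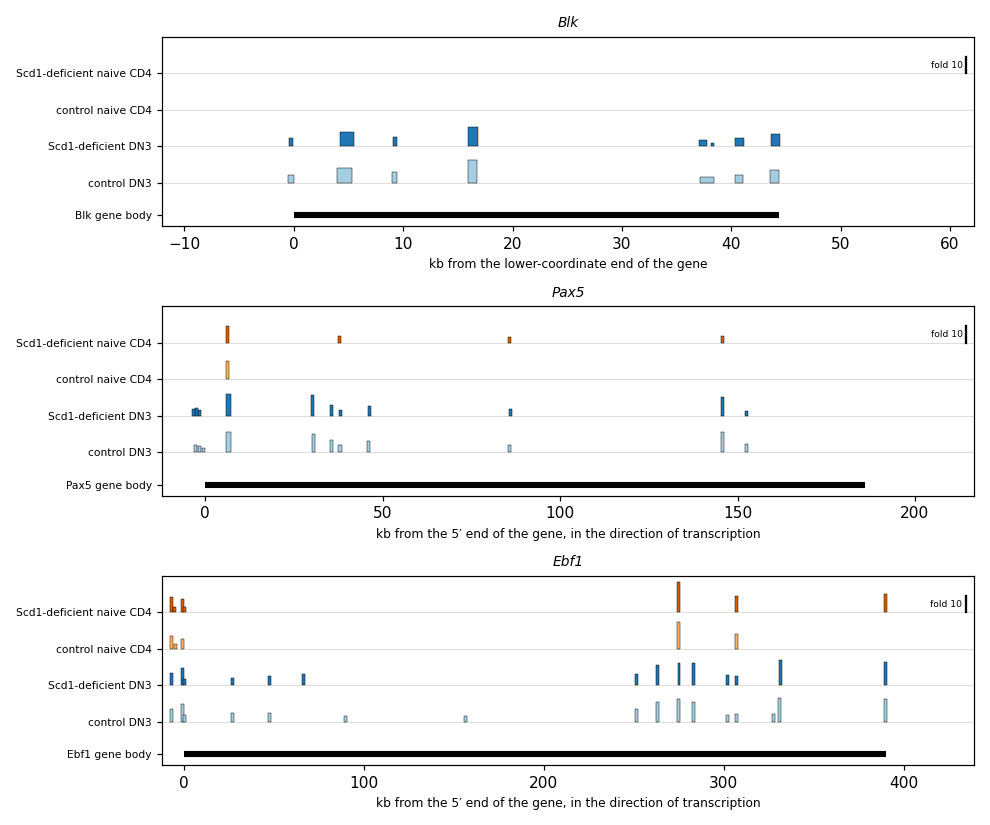
Peaks along Blk, Pax5 and Ebf1. The x axis is distance in kb from the 5′ end of the gene, or for Blk from its lower-coordinate end; each lane is 1 library, bar height is the fold over local background (scale mark, fold of 10) and the black line is the gene body, with narrow peaks widened to stay visible. Blk is empty in both naive lanes and has 7 regions in the DN3 lanes, while Pax5 has 1 and Ebf1 has 4 regions in all lanes.

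Ebf1 (chromosome 11, 44618100 to 45008096, plus strand), the factor that opens B lineage chromatin ahead of Pax5, was open near its start in all 4 libraries. A region from 44616658 to 44617634, with the strongest summit at −0.89 kb from the first annotated start, had a fold of 7.94 and 5.97 in Scd1-deficient and control naive cells. In Scd1-deficient and control DN3 cells it was 10.1 and 10.3, above both naive libraries. A second region just inside the gene, 0.36 kb past that start, had a fold of 3.26 in Scd1-deficient naive cells, none called in control naive cells, and 3.69 and 3.99 in Scd1-deficient and control DN3 cells. The bases between them, which hold the start, were in no peak of any library. The promoter of that start, chr11:44617850-44618149 on the plus strand (RefSeq, GRCm38.p6), is shown because it falls in this gap. Its GC content is 36.7%, against a mean of 53.8% over all 32851 promoters. Capitals mark the RUNX core (TGTGGT) and the TCF motif (TCAAAG) found in it.
Ebf1: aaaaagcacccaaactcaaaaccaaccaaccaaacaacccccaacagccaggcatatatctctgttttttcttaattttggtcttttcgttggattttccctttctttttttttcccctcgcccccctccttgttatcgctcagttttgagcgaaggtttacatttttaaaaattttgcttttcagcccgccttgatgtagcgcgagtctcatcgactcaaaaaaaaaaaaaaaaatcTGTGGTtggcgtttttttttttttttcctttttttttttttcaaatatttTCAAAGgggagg

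Within the body of Ebf1 the cell types used partly different regions. The strongest naive region, from 44892832 to 44893685, had folds of 18.2 and 16.2 in Scd1-deficient and control naive cells and 13.6 and 13.3 in Scd1-deficient and control DN3 cells. It was the highest fold among all regions of the 9 genes. A weaker one from 44924858 to 44925446, chosen after its values were seen, had folds of 9.67 and 8.83 in Scd1-deficient and control naive cells against 5.48 and 4.37 in Scd1-deficient and control DN3 cells. Also inside the gene, DN3 cells had 3 regions with folds between 11.7 and 15.1 that were called in neither naive library, of which the strongest, from 44948700 to 44949800, had a fold of 15.1 on 122 fragments in Scd1-deficient and 13.9 on 136 fragments in control DN3 cells. Over the downstream end of Ebf1 a region had a fold of 11.0 on 50 fragments in Scd1-deficient naive cells and 13.7 and 13.8 in Scd1-deficient and control DN3 cells, with no call in control naive cells.

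Of the B cell receptor signalling chains, Cd79a (chromosome 7, 24897497 to 24901858, plus strand) had little called at its start. A peak there, from 24897284 to 24897557, was called in Scd1-deficient DN3 cells alone, with a fold of 2.62 on 22 fragments (13.8 to 33.3). It covered 263 of the 300 bases of the promoter chr7:24897247-24897546, printed here because the call lies on it. Capitals mark an E box (CAGGTG), the motif of E proteins such as E2A, and the PU.1 motif AGGAAGTG.
Cd79a: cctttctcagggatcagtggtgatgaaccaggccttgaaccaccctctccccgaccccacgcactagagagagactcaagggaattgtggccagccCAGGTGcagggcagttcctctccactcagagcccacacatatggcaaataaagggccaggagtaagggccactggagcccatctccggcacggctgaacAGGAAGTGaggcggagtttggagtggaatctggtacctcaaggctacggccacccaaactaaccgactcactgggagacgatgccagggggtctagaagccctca
The other 5 regions near Cd79a were called in all 4 libraries, and 3 of them lay inside the neighbouring gene Arhgef1. An upstream region at −5.17 kb had folds of 4.65 and 6.16 in Scd1-deficient and control naive cells against 1.85 and 2.56 in Scd1-deficient and control DN3 cells, a mean log2 difference of 1.29 for naive over DN3. That was the largest such difference in favour of naive cells among the 21 regions called in all 4 libraries. The DN3 calls there were weak, with −log10 q of 1.4 in Scd1-deficient and 5.06 in control cells. The summits of the 4 libraries spread over 191 bp.

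Cd79b (chromosome 11, 106311341 to 106314562), the partner chain of Cd79a, had a weak region over its higher-coordinate end in both DN3 libraries. It reached from 106313582 to 106314698 with folds of 3.83 and 4.21 in Scd1-deficient and control DN3 cells. In naive cells the peaks joined to it were narrower and lay inside the gene, with folds of 3.38 and 2.72 in Scd1-deficient and control cells and summits up to 809 bp from those of DN3 cells. Of the other 4 regions, 1 lay at the neighbour Gh and 2 in the neighbour Scn4a. The last, below the lower-coordinate end and at no other gene, was called in Scd1-deficient naive cells alone, with a fold of 4.3 on 19 fragments. The region in Scn4a shared by all libraries had folds of 7.53 and 8.63 in Scd1-deficient and control naive cells against 5.64 and 5.58 in Scd1-deficient and control DN3 cells.

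Blnk and Bank1, adaptors that link the B cell receptor to its downstream enzymes, had start regions of modest strength in DN3 cells. Blnk (chromosome 19, 40928927 to 40994221, minus strand) had a region over its start with a fold of 4.94 on 22 fragments in Scd1-deficient naive cells, none called in control naive cells, and folds of 7.94 on 44 fragments and 6.35 on 43 fragments in Scd1-deficient and control DN3 cells. A stronger region 31.08 kb into the gene was called in all 4 libraries, with folds of 12.9 and 10.1 in Scd1-deficient and control naive cells and 13.0 and 14.1 in Scd1-deficient and control DN3 cells, and with summits within 6 bp of each other. A region at −5.6 kb was called in the DN3 libraries alone, with folds of 10.2 in Scd1-deficient and 7.39 in control cells.

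Bank1 (chromosome 3, 136053363 to 136326141, minus strand) had a start region in both DN3 libraries, with folds of 6.03 on 32 fragments in Scd1-deficient and 6.47 on 36 in control cells, and none in naive cells. The naive cells instead had a region 219.41 kb into the gene, from 136106353 to 136107104, with folds of 8.17 in Scd1-deficient and 8.67 in control cells and no call in either DN3 library. By −log10 q it was the strongest of the 3 regions called in both naive libraries and neither DN3 library. The neighbouring region at 225.56 kb, called in all 4 libraries, had folds of 9.36 and 7.44 in Scd1-deficient and control naive cells and 9.35 and 8.27 in Scd1-deficient and control DN3 cells, so the cell types overlapped there. The promoters of both adaptors are shown because their peaks cover them: at chr19:40994172-40994471 (minus strand) the Scd1-deficient naive peak covered 277 of 300 bases and both DN3 peaks all 300, and at chr3:136326017-136326316 (minus strand) the Scd1-deficient and control DN3 peaks covered 204 and 138 bases. Capitals mark an E box (CACCTG on the printed strand) in each, and in Blnk also the octamer ATTTGCAT.
Blnk: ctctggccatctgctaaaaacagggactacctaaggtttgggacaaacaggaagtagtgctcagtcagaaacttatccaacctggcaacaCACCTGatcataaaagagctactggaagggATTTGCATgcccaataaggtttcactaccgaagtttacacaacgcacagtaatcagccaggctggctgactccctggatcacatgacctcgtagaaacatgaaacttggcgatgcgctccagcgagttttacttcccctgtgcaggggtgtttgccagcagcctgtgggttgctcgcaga
Bank1: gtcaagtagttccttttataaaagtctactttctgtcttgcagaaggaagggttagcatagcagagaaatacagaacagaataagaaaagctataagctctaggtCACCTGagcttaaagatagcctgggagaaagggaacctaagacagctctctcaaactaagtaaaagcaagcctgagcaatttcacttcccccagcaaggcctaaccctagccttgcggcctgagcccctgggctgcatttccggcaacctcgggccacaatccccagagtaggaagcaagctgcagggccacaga

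Vpreb3 (chromosome 10, 75943024 to 75949657, plus strand), which assists assembly of the receptor in precursor B cells, had no region within 1 kb of its annotated start in any library and no peak in its gene body. Its promoter, chr10:75948050-75948349, was chosen after its values were seen and is shown beside that of Blnk, since it too holds an octamer (ATTTGCAT, capitals) but lay in no peak. Capitals also mark a RUNX core (TGTGGT), which was not found in the Blnk promoter.
Vpreb3: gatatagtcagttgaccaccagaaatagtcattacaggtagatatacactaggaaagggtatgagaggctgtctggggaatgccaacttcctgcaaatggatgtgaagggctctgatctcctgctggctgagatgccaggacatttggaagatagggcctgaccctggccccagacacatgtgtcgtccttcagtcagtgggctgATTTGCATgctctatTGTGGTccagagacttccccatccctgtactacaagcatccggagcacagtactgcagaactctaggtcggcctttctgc
All 4 regions counted for Vpreb3 lay outside the gene, and 3 of them within or at the neighbours Chchd10, Gm867 and Gm5134. The region in Chchd10 had folds of 9.67 and 9.63 in Scd1-deficient and control naive cells and 10.2 and 9.22 in Scd1-deficient and control DN3 cells.

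The motifs were searched on both strands in the 6 genes of the 9 with a promoter in the RefSeq table, without overlap between motifs in the hits. Over all 32851 promoters the palindromic EBF motif stood in 0.904%, the E box CAGGTG in 20.2%, the octamer ATGCAAAT in 1.74%, the PU.1 motif AGGAAGTG in 4.07%, the RUNX core TGTGGT in 16.8% and the TCF motif TCAAAG in 16.0%. Of the 6 genes, Cd79a, Blnk and Bank1 held an E box, Blnk and Vpreb3 the octamer, Vpreb3 and Ebf1 the RUNX core, Cd79a the PU.1 motif, and Ebf1 the TCF motif. The palindromic EBF motif was not found in these windows, and none of the motifs searched was found in the Pax5 promoter. EBF sites that depart from the palindrome were not searched for. The search therefore cannot tell whether any of these promoters, that of Cd79a included, lacks an EBF site.

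Cd74 (chromosome 18, 60803849 to 60812652), had the higher folds in naive cells at its lower-coordinate end. The peak there had folds of 5.13 on 97 fragments in Scd1-deficient and 4.92 on 111 fragments in control naive cells. In control DN3 cells its fold was 2.44 on 48 fragments, and it was not called in Scd1-deficient DN3 cells. Inside the gene the cell types diverged over a short distance. A region from 60804822 to 60806314 had folds of 7.1 and 6.38 in Scd1-deficient and control naive cells against 3.42 and 4.5 in Scd1-deficient and control DN3 cells, with the same summit base in all 4 libraries. The adjoining region from 60806456 to 60807709 had folds of 2.68 and 2.01 in Scd1-deficient and control naive cells against 5.46 and 5.69 in Scd1-deficient and control DN3 cells. The mean log2 differences, naive over DN3, were 0.77 for the first and −1.25 for the adjoining region, which was the largest in favour of DN3 cells among the 21 shared regions. The naive calls at the adjoining region were weak, with −log10 q of 8.36 in Scd1-deficient and 3.73 in control cells. A further region at the lower-coordinate edge of the window reached it by 5 bp, through the control DN3 peak alone.

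**Figure D3:**
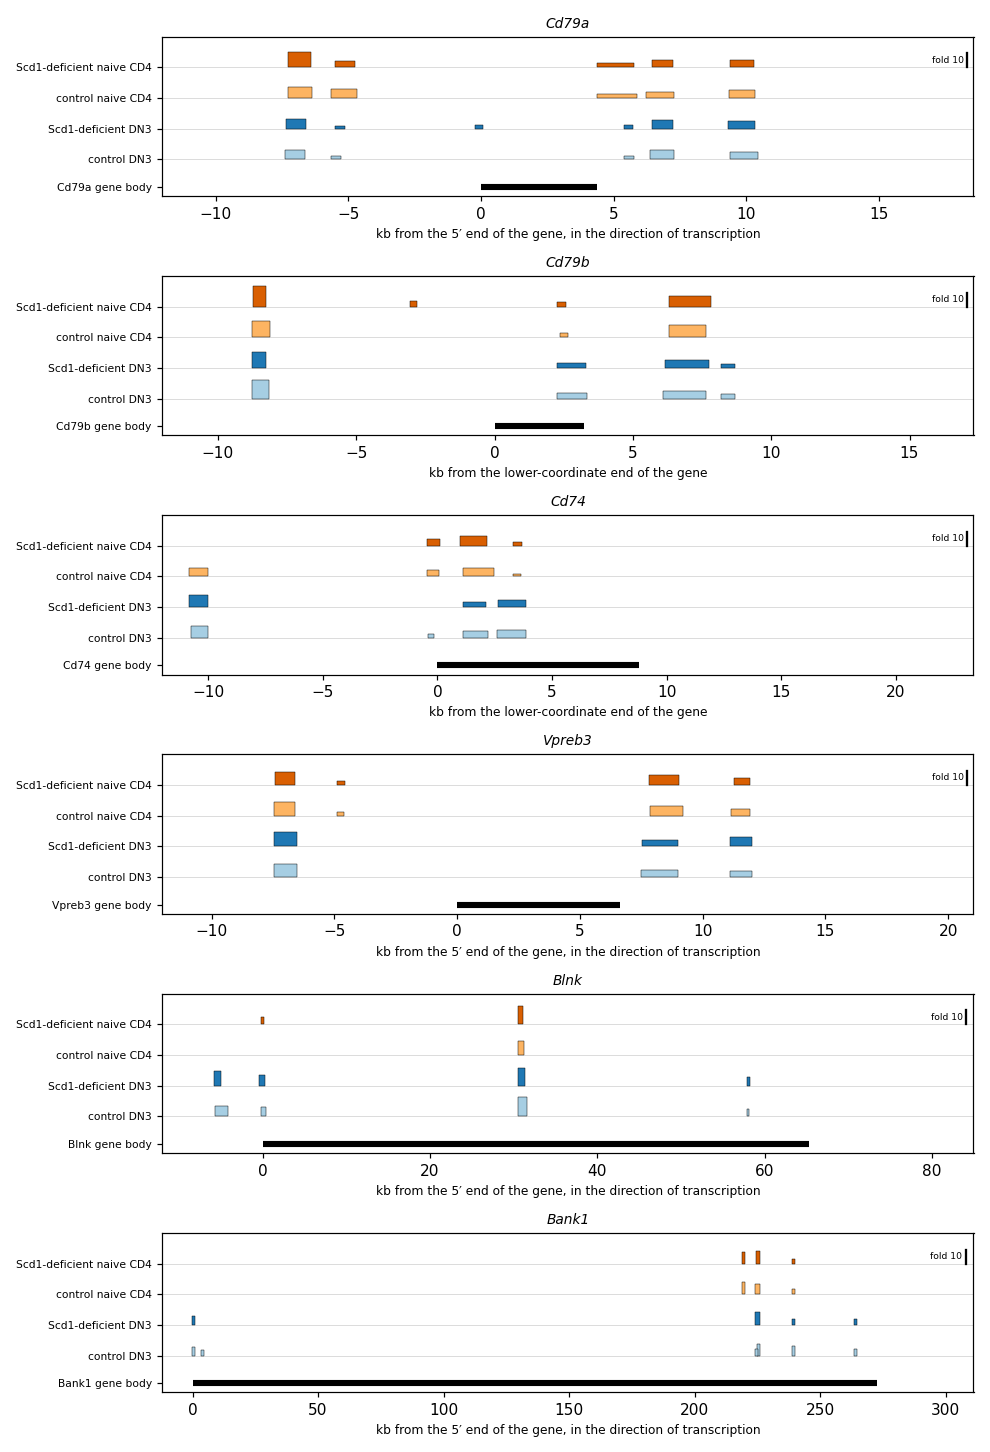
Peaks along Cd79a, Cd79b, Cd74, Vpreb3, Blnk and Bank1, drawn as for the plot of Blk, Pax5 and Ebf1, with x in kb from the 5′ end of the gene, or from the lower-coordinate end for Cd79b and Cd74, and bar height as fold. Vpreb3 has no peak over its body, Cd79a has a start peak of fold 2.62 in Scd1-deficient DN3 cells alone, and the adjoining regions inside Cd74 have opposite heights in naive and DN3 lanes.

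Across the 21 regions called in all 4 libraries, differences in fold went both ways. Both naive folds were above both DN3 folds at 9 regions (42.9%, against 38.4% of the 30191 such regions around all genes), and below at 7 (33.3%, against 28.2%). The median log2 difference, naive over DN3, was 0.01 for the 21 regions and 0.04 around all genes, with a range of −1.25 to 1.29 for the 21. With the folds centred on the median difference of the cell types, 8 were above (38.1%, against 33.4%) and 7 below (33.3%, against 32.7%). These shares lie near those of all genes. The summits of the 4 libraries lay a median of 69 bp apart, against 58 bp around all genes, and within 100 bp of each other at 13 of the 21 regions (61.9%, against 69.5%). The median fold over every peak of the 9 genes was 5.28 and 6.38 in Scd1-deficient and control naive cells and 5.75 and 5.41 in Scd1-deficient and control DN3 cells, where the medians around all genes were 7.98, 7.78, 6.71 and 6.82 in the same order.

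**Figure D4:**
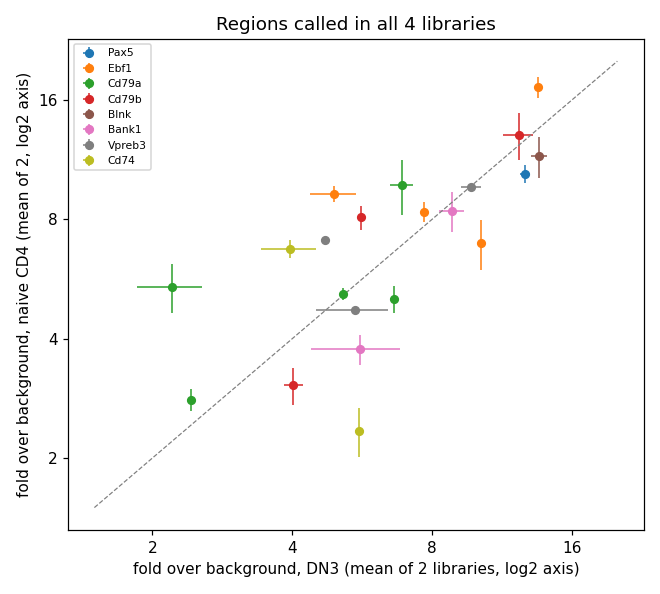
Fold over local background of the 21 regions called in all 4 libraries, with the mean of the naive CD4 libraries on the y axis and that of the DN3 libraries on the x axis, both log2 axes. Bars span the Scd1-deficient and control values and the dashed line marks equal folds; points lie on both sides, with 9 wholly above and 7 wholly below the DN3 values.

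Some regions of the 9 genes were called in only 1 genotype of a cell type. In naive cells 7 regions were called in Scd1-deficient cells alone (10.8%, against 6.91% around all genes) and 1 in control cells alone (1.54%, against 2.96%). The 7 lay at Pax5 (3), Ebf1 (2), Cd79b (1) and Blnk (1), and 6 of them were also called in both DN3 libraries, as were 57.7% of such regions around all genes. The strongest was the Ebf1 region over the downstream end, with a −log10 q of 36.7, and the others lay between 3.88 and 8.94. The region of control cells alone was the one at the window's edge beside Cd74. Only its control DN3 peak reached the window, so the naive peak and the Scd1-deficient DN3 peak were counted there through joining. The naive Scd1-deficient list is the longer of the pair, and with lists of equal length the counts were 3 and 3, or 6.82% each, against 5.47% and 6.89% around all genes.

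In DN3 cells 2 regions were called in Scd1-deficient cells alone (3.08%, against 7.47% around all genes) and 6 in control cells alone (9.23%, against 8.2%). Of those of Scd1-deficient cells, the Ebf1 region from 44684578 to 44684899 had a fold of 6.58 on 35 fragments and the Cd79a start region a fold of 2.62. Of those of control cells, 3 lay in Ebf1 and 1 each at Pax5, Bank1 and Cd74, with −log10 q from 1.94 to 16.7. Among the 53 regions called in both DN3 genotypes, the median log2 difference in fold, Scd1-deficient over control, was −0.02, against −0.01 around all genes, and 25 were above 0 (47.2%, against 48.7%). At Pax5 7 of 10 such regions were below 0 (median −0.15), and at Blnk 3 of 4 were above (median 0.24). At Blk the 7 regions differed by −0.2 to 0.12. Among the 25 regions called in both naive genotypes, 19 had a higher fold in Scd1-deficient cells, or 76.0%, against 77.1% around all genes. The median log2 difference was 0.17, against 0.13 around all genes. Spread between animals is unknown, so none of these differences can be set against it.

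At the level of start regions, 4 and 3 of the 9 genes had one in Scd1-deficient and control naive cells and 6 and 7 in Scd1-deficient and control DN3 cells. Over all protein-coding genes the shares were 58.8% and 57.2% in Scd1-deficient and control naive cells and 66.4% and 66.7% in Scd1-deficient and control DN3 cells. Ebf1 and Cd79b had one in all 4 libraries (56.6% of all genes), and Blk and Bank1 in the DN3 libraries of both genotypes but not in naive cells, a pattern of 7.28% of all genes. At Cd79b the naive peaks lay inside the gene, short of its end, and counted through the 1 kb allowance. Blnk differed between the naive genotypes (Scd1-deficient alone, 1.85% of all genes), and no gene of the 9 was called in control naive cells alone (0.287%). In DN3 cells Cd79a was called in Scd1-deficient cells alone (0.693%), and Pax5 and Cd74 in control cells alone (0.929%). These last 4 calls were weak, with −log10 q between 1.94 and 8.94.

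Among 20 other B lineage genes, 10 and 9 had a start region in Scd1-deficient and control naive cells, and 11 and 10 in Scd1-deficient and control DN3 cells. The shares of all protein-coding genes were 58.8%, 57.2%, 66.4% and 66.7% in the same order. In all 4 libraries, 9 of the 20 were called, where 56.6% of all genes were. Among the 9 was Pou2af1, the coactivator of octamer factors. Its folds were 15.2 and 13.6 in Scd1-deficient and control naive cells and 15.6 and 14.8 in Scd1-deficient and control DN3 cells. Another was Cr2, a complement receptor of B cells, with 14.8 and 12.8 in Scd1-deficient and control naive cells and 19.3 and 20.8 in Scd1-deficient and control DN3 cells. Spib, an ETS family factor, was called in the DN3 libraries alone, with folds of 3.66 in Scd1-deficient and 3.52 in control cells. Cd22, an inhibitory receptor of B cells, was called in Scd1-deficient naive cells alone, with a fold of 3.01. Cd180 was called in Scd1-deficient DN3 cells alone, with a fold of 3.65. Both calls were weak, with a −log10 q of 2.65 for Cd22 and 5.35 for Cd180. In no library was a start region called at 8 of the 20, where 32.3% of all genes had none. Among the 8 were Ms4a1, a B cell surface protein gene, and Vpreb1, a surrogate light chain gene, both chosen after their values were seen. The summed fold of the start regions of this list was 81.1 and 74.1 in Scd1-deficient and control naive cells and 90.4 and 87.2 in Scd1-deficient and control DN3 cells.

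Genes of B cell receptor signalling and MHC class II, partners of the 9 genes, had start regions in nearly equal number across libraries. Of 16 signalling genes, 14 had a start region in every library and 2 in none. Of 11 MHC class II genes, 10 had one in every library, the exception being Ciita, their master regulator. Of all genes, 56.6% had a start region in every library and 32.3% in none. H2-Aa, an MHC class II chain, had folds of 13.1 and 11.3 in Scd1-deficient and control naive cells and 12.1 and 11.2 in Scd1-deficient and control DN3 cells (chosen after its values were seen). For the other cell types a gate could leave behind, start regions were called in naive cells at 3 and 3 of 14 myeloid genes in Scd1-deficient and control cells, at 4 and 3 of 8 NK genes and at 3 and 3 of 6 erythroid genes. In DN3 cells they were called at 4 and 4 myeloid, 4 and 5 NK and 3 and 3 erythroid genes in Scd1-deficient and control cells. Of all genes, 58.8% and 57.2% had one in Scd1-deficient and control naive cells, and 66.4% and 66.7% in Scd1-deficient and control DN3 cells. The part of other cell types in the regions of the 9 genes was not tested.

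**Figure D5:**
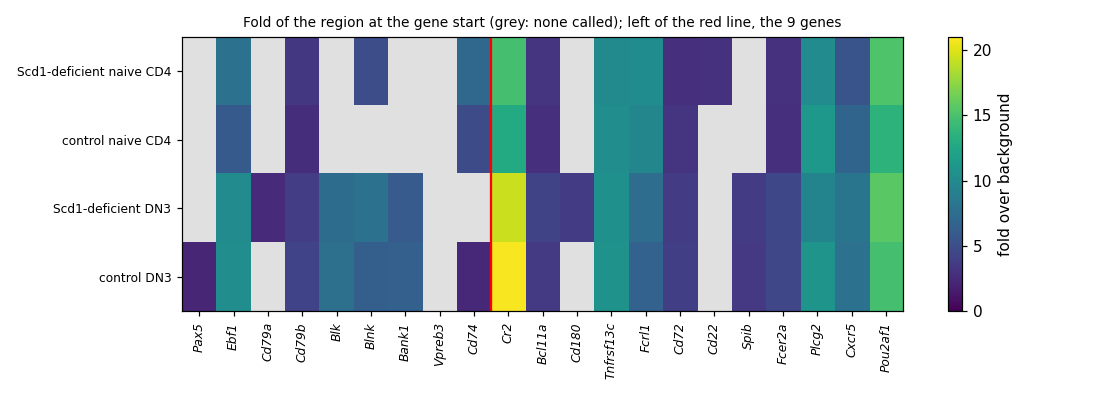
Fold over local background (colour scale) of the strongest region within 1 kb of the gene start, or of either gene end where no start is annotated, for the 9 genes (left of the red line) and for the other B lineage genes called in at least 1 library; rows are libraries and grey marks no call. Ebf1 and Cd79b are filled in all rows, Blk and Bank1 in the DN3 rows, and Vpreb3 in none. At Cd79b the naive values belong to peaks inside the gene, with summits up to 809 bp from those of DN3 cells. At Cd74 the naive values belong to different regions: 7.1 in Scd1-deficient cells to one inside the gene, 4.92 in control cells to the lower-coordinate end. Region by region, the folds in Scd1-deficient and control naive cells were 7.1 and 6.38 inside the gene, and 5.13 and 4.92 at that end.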

How the data were processed

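The submitters' processing notes name Trimmomatic, BWA, MACS2 and the build mm10, with no versions. For MACS2 settings, duplicate handling and any Tn5 shift, nothing is stated there or in the labels (not given in the sources used here). Narrow peaks were deposited by the authors as 1 list per library. In these deposited lists the fold is the ratio of summit pileup to local background, with 1 added to each, and the −log10 p and −log10 q describe each summit against that library's own background, and rise with depth. The deposited score is 10 times the −log10 q and was not used. These values describe and rank peaks within a list; a fold set beside another library's is a description.

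Whole summit fragments were recovered from fold and −log10 p, within 0.05, for 100.0% of peaks. Duplicates may be among them, so the Poisson 95% intervals cover counting error only. Coordinates are 1-based, on chromosomes 1 to 19 and X. Peaks overlapping by 1 bp or more were joined. Genes came from RefSeq (GRCm38.p6, the assembly of mm10); starts and strands came from its promoter table for 17274 of 21631 genes, and either gene end served for the rest, including Cd79b, Blk and Cd74. Exons and introns were not told apart. Joining and recovery were tested on simulated data with Python 3.11.15, pandas 2.3.3 and SciPy 1.17.1. The 9 genes, the gene lists and the rules were chosen with earlier results of these data known. All 9 genes are named; of other lists up to 4 genes or those without calls. Alternatives were stricter −log10 q, equal list length, summit distance, other windows and start distances.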

Additional observations from a re-analysis of the deposited data

Results flagged for a closer look

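The genotype balance of the regions of the 9 genes pointed opposite ways in the cell types, and the difference was not tested. Regions of Scd1-deficient cells alone minus those of control cells alone came to 6 in naive CD4 T cells and −4 in DN3 thymocytes. These counts are of joined regions, including the one beside Cd74 of which only the control DN3 peak reached the window. At Pax5 the balance was 3 in naive cells and −1 in DN3 cells, and at Ebf1 2 in naive cells and −2 in DN3 cells. Around all genes the balance had the same signs, from 4724 against 2023 regions of Scd1-deficient and control naive cells alone and 5102 against 5603 in DN3 cells. With lists of equal length the 9 genes had 3 against 3 regions in naive cells and 3 against 2 in DN3 cells, so neither sign was kept. Around all genes the equal-length lists had 2696 against 3397 in naive cells, the opposite sign, and 2117 against 2263 in DN3 cells.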

How the results depend on the processing

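Counts over the 9 genes are small and move with list length and window. With all lists at 46576 regions, regions of both DN3 and neither naive library fell to 13 (7 with Blk also left out, added after seeing the data), those of both naive and neither DN3 library were 5, the naive counts of Scd1-deficient or control cells alone were 3 and 3, that of control DN3 cells alone was 2, and 3 genes had a start region in control DN3 cells. At a −log10 q of at least 5, Scd1-deficient DN3 cells alone had 1 region and control naive cells alone 2. At a −log10 q of at least 10, Scd1-deficient naive cells alone had 2 regions, and 2 genes had a start region there. With summits required within 250 bp, Scd1-deficient and control DN3 cells alone had 8 and 12. With a window of 0 kb, control naive cells alone had 0, both naive and neither DN3 library 1, and all 4 libraries 9. With 50 kb, control DN3 cells alone had 10, Scd1-deficient and control naive cells alone 13 and 2, both naive and neither DN3 library 5, both DN3 and neither naive library 47, and all 4 libraries 48. When the peak had to cover the start, 2 and 1 genes had one in Scd1-deficient and control naive cells and 4 in control DN3 cells. A wider window or a stricter call changes which peaks are counted by construction; otherwise the cause was not tested. The other 45 of 70 alternative values stayed within 1.5 times the reported count. They include alternatives chosen after seeing the data, such as leaving out Blk (18 regions of DN3 cells alone), regions of other genes (24 of DN3 cells alone and 14 of all 4 libraries), and folds as fragments over background (9 regions above and 5 below) or centred between cell types (8 and 7). No paired analysis was possible because each group has 1 library. The weakest callable summit, 11 to 14 fragments at the genome-wide background, limits what an absent peak means.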
